A study of Mus musculus with 7 samples.

Results

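The levels and exon use of 10 genes that encode enzymes of glycolysis and lactate metabolism were measured in the hippocampus of adult mice. The genes were chosen by name, namely Gpi1, Pfkm, Pfkp, Aldoa, Pgk1, Eno1, Eno2, Pkm, Ldha and Ldhb, and all 10 were found among the 38924 gene records counted. Their exons were divided into 270 of the 359565 exon bins, a bin being a stretch of exon with the same set of transcripts along its length. They were chosen because exon bins of Aldoa and Gpi1 differed between dentate gyrus and Ammon's horn. All values of that contrast are therefore given as a description, without a test, and tests are given for the knockout contrast.

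The study sequenced polyadenylated RNA of dissected hippocampus as 7 libraries in 3 groups. There were 3 libraries of Ammon's horn, which holds the CA fields, from mice with both copies of Khdrbs3 deleted, 1 library of wild-type dentate gyrus, and 3 libraries of wild-type Ammon's horn. Khdrbs3 encodes T-STAR, a neuronal RNA-binding protein that regulates splicing. Mice of all 3 groups were adult and received no treatment. For every library the labels name a Tstar null allele crossed back to C57Bl6 over 8 generations, wild-type libraries included. Animals per library are not stated, so p-values measure the spread between libraries, which may be technical.

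Glycolysis splits glucose into pyruvate in the cytosol and yields ATP. In the first part of the pathway sugar phosphates are rearranged, phosphorylated and cleaved. In the second part the resulting 3-carbon sugars are oxidised and give ATP, and lactate dehydrogenase then interconverts pyruvate and lactate. Several steps have isoenzymes from separate genes or exons, and in brain these differ between neurons and glia and between resting and dividing cells.

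The gene table held between 50230733 and 67692326 counts per library, counted over whole genes with introns, and the exon bins held between 29698245 and 39904606. Exon bin 2 of Khdrbs3 held between 0.0544% and 0.0757% of the gene's exon-bin counts in the knockout libraries, 10.98% in the dentate gyrus library and between 11.04% and 11.67% in the wild-type Ammon's horn libraries. The dentate gyrus markers Prox1, C1ql2, Dsp and Tdo2 summed to 468 CPM (counts scaled to a common library total by the TMM method) in the dentate gyrus, against 38.0 to 58.1 CPM in knockout and 41.2 to 57.7 CPM in wild-type Ammon's horn. The CA1 markers Fibcd1, Wfs1, Nov and Mpped1 summed to 640 to 674 CPM in knockout Ammon's horn, 91.2 CPM in the dentate gyrus and 699 to 724 CPM in wild-type Ammon's horn. By these markers each tissue was what its label names.

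The first question was whether loss of Khdrbs3 changed the levels of these enzymes. None of the 10 genes was called in edgeR's quasi-likelihood test at an adjusted p under 0.05, against a background of 0.0745% of the 22830 genes tested. The largest difference was a lower level of Pkm, by 0.11 on the log2 scale. Of the 10 genes 7 had a negative log2 fold change, and their median was -0.04, against 0.0015 for all genes tested. DESeq2 and limma-voom also called 0 of the 10. At an unadjusted p under 0.05 there was 1 of 10, Pkm, where 8.38% of all genes passed.

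Early in the pathway, Gpi1 (ENSMUSG00000036427.4, chr7:34202122-34230289, minus strand) encodes glucose-6-phosphate isomerase, which turns glucose 6-phosphate into fructose 6-phosphate. It was at 577, 559 and 573 CPM in the knockout libraries, 465 CPM in the dentate gyrus and 562, 578 and 566 CPM in wild-type Ammon's horn. The knockout and wild-type ranges overlapped, and the dentate gyrus lay below both. The knockout log2 fold change was 0.003 with a standard error of 0.05 (edgeR adjusted p = 0.993), with a 95% interval of -0.10 to 0.11.

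Pfkm and Pfkp encode the muscle and platelet forms of phosphofructokinase, the committed and most regulated step. Pfkm (ENSMUSG00000033065.7, chr15:98092589-98132447, plus strand) was at 313, 310 and 313 CPM in the knockout, 261 CPM in the dentate gyrus and 296, 312 and 298 CPM in wild-type Ammon's horn. Its knockout log2 fold change was 0.05 with a standard error of 0.05 (edgeR adjusted p = 0.840). Pfkp (ENSMUSG00000021196.7, chr13:6579768-6648777, minus strand) was at 204, 211 and 200 CPM in the knockout, 154 CPM in the dentate gyrus and 186, 199 and 202 CPM in wild-type Ammon's horn. For both subunits the knockout and wild-type libraries overlapped and the dentate gyrus was lowest. The knockout log2 fold change of Pfkp was 0.07 with a standard error of 0.05 (edgeR adjusted p = 0.777).

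Aldoa (ENSMUSG00000030695.7, chr7:126795234-126800751, minus strand) encodes aldolase A, which cleaves fructose 1,6-bisphosphate into triose phosphates. It was at 1791, 1619 and 1605 CPM in the knockout, 1388 CPM in the dentate gyrus and 1656, 1732 and 1756 CPM in wild-type Ammon's horn. Knockout replicate 1 was the highest of the 7 libraries, the other knockout libraries lay below the wild-type ones, and the dentate gyrus was the lowest. The knockout log2 fold change was -0.04 with a standard error of 0.06 (edgeR adjusted p = 0.902).

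Among the ATP-yielding steps, Pgk1 (ENSMUSG00000062070.6, chrX:106187100-106203699, plus strand) encodes phosphoglycerate kinase, which makes the first ATP of the pathway. It was at 478, 486 and 470 CPM in the knockout, 360 CPM in the dentate gyrus and 493, 521 and 495 CPM in wild-type Ammon's horn. All knockout libraries lay below all wild-type ones, but the log2 fold change of -0.07 with a standard error of 0.05 was not past the threshold (edgeR adjusted p = 0.735). Pgk1, Pkm and Eno2 had this arrangement, which makes 3 of 10 against 6.5% of all genes.

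Eno1 and Eno2 encode enolases, which make phosphoenolpyruvate; the Eno1 product is widespread and the Eno2 product is the neuron-specific enolase. Eno1 (ENSMUSG00000063524.7, chr4:150236721-150248879, plus strand) was at 892, 815 and 853 CPM in the knockout, 626 CPM in the dentate gyrus and 847, 849 and 896 CPM in wild-type Ammon's horn. Eno2 (ENSMUSG00000004267.10, chr6:124760053-124769673, minus strand) was at 785, 774 and 792 CPM in the knockout, 538 CPM in the dentate gyrus and 817, 824 and 812 CPM in wild-type Ammon's horn. The ranges of knockout and wild type overlapped for Eno1 and did not for Eno2. The knockout log2 fold change was -0.02 for Eno1 (standard error 0.05, edgeR adjusted p = 0.958) and -0.06 for Eno2 (standard error 0.05, edgeR adjusted p = 0.774).

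Pkm (ENSMUSG00000032294.10, chr9:59656368-59679375, plus strand) encodes pyruvate kinase M, the last ATP-yielding step. It was at 1420, 1354 and 1409 CPM in the knockout, 1059 CPM in the dentate gyrus and 1499, 1520 and 1500 CPM in wild-type Ammon's horn. The 3 knockout libraries lay below the 3 wild-type libraries. The log2 fold change was -0.11 with a standard error of 0.05 and a 95% interval of -0.22 to -0.01. Its unadjusted p was 0.0378, and it did not pass over all genes (edgeR adjusted p = 0.555). Markers of 3 cell types also lay apart without overlap. The oligodendrocyte markers Mbp, Mobp, Mog and Cldn11 summed to 2320 to 2511 CPM in the knockout and 2686 to 2907 CPM in wild-type Ammon's horn. CA1 markers summed to 640 to 674 CPM in the knockout and 699 to 724 CPM in wild-type Ammon's horn, and microglial markers to 207 to 213 CPM in the knockout and 219 to 226 CPM in wild-type Ammon's horn. The part of these differences in the level of Pkm was not tested.

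Ldha and Ldhb encode the M and H subunits of lactate dehydrogenase, whose tetramers interconvert pyruvate and lactate. Ldha (ENSMUSG00000063229.8, chr7:46841475-46855627, plus strand) was at 276, 261 and 252 CPM in the knockout, 174 CPM in the dentate gyrus and 276, 294 and 275 CPM in wild-type Ammon's horn. Ldhb (ENSMUSG00000030246.5, chr6:142490249-142507957, minus strand) was at 308, 270 and 273 CPM in the knockout, 207 CPM in the dentate gyrus and 295, 311 and 277 CPM in wild-type Ammon's horn. Knockout and wild-type ranges overlapped for both subunits, and the dentate gyrus was below all 6 other libraries. The knockout log2 fold change was -0.10 for Ldha (standard error 0.06, edgeR adjusted p = 0.682) and -0.05 for Ldhb (standard error 0.07, edgeR adjusted p = 0.867).

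**Figure D1:**
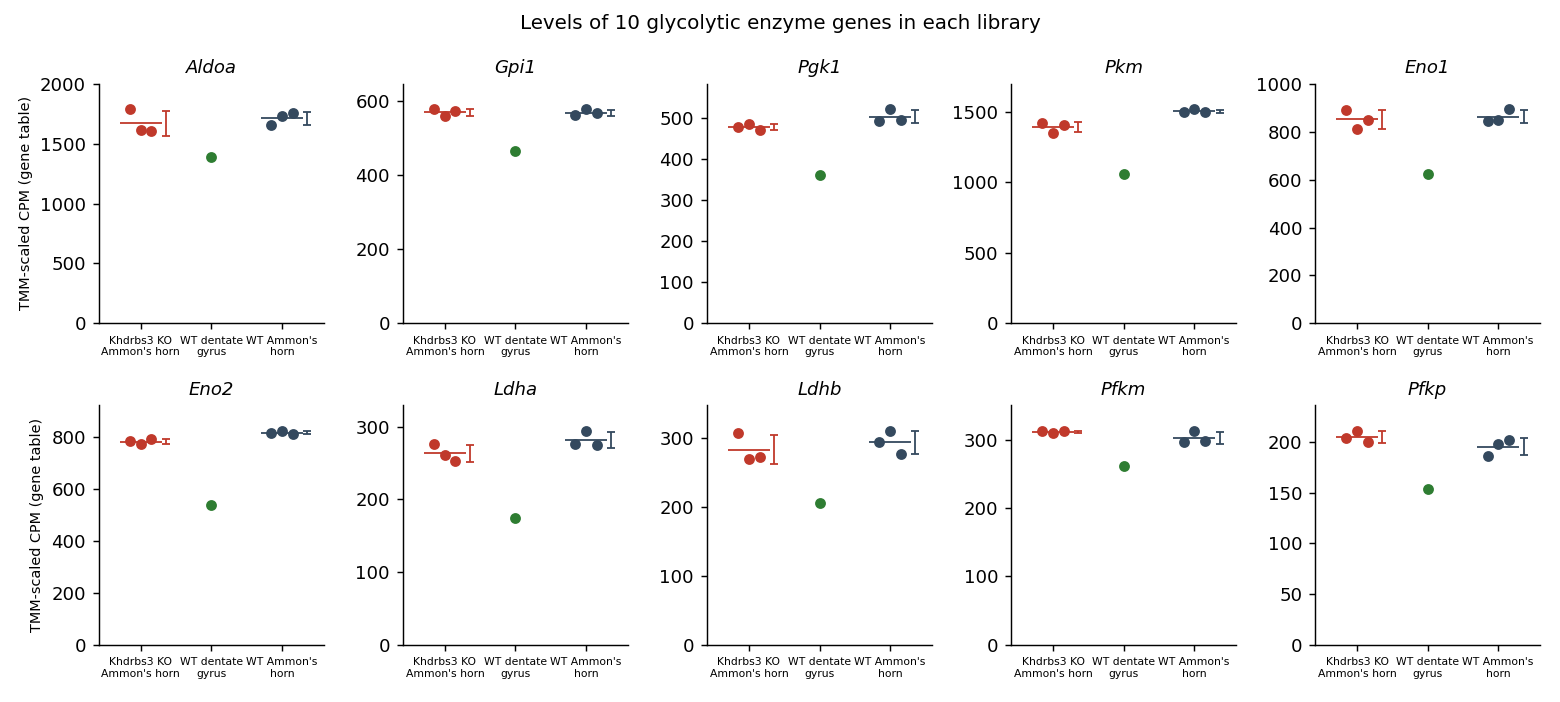
Level of each of the 10 genes in each library, in TMM-scaled CPM of the gene table on an axis from 0; points are libraries, horizontal lines are group means and the bars beside them are 1 SD (n = 3), with no bar for the single dentate gyrus library. The dentate gyrus point lies below all 6 Ammon's horn points for every gene, and knockout and wild-type points lie close together.

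**Figure D2:**
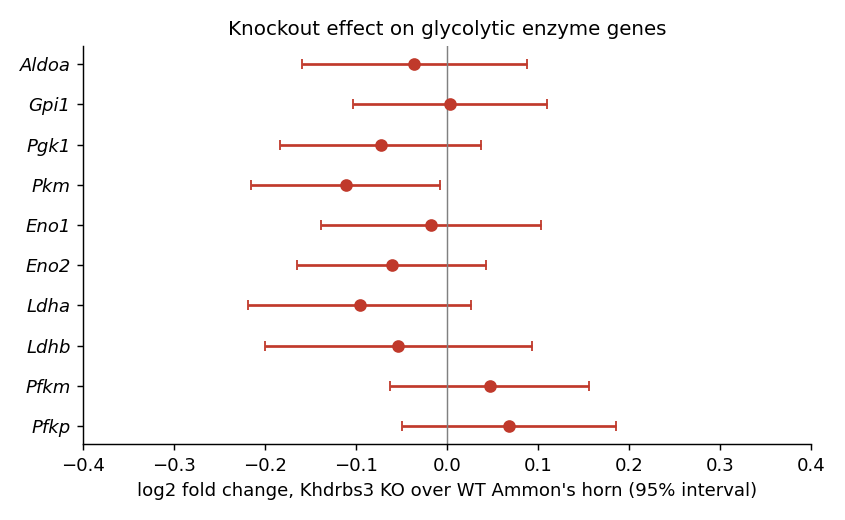
Log2 fold change of each gene in Khdrbs3 knockout over wild-type Ammon's horn (3 libraries each), with its 95% interval from the edgeR fit, without adjustment for the number of genes. The interval of Pkm, from -0.22 to -0.01, is the one that does not reach 0.

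Per kilobase of each gene's longest coding transcript, the level in wild-type Ammon's horn was highest for Aldoa, at 1107 ± 34 CPM per kilobase (SD, n = 3). Pkm followed at 619 ± 4.8, Eno1 at 426 ± 14, Eno2 at 293 ± 2.2 and Pgk1 at 276 ± 8.5 CPM per kilobase. Ldhb was at 226 ± 13, Gpi1 at 197 ± 2.8, Ldha at 155 ± 5.9, Pfkm at 105 ± 3.0 and Pfkp at 47.2 ± 2.0 CPM per kilobase. Phosphofructokinase subunits were thus the lowest and aldolase A the highest of the 10, and each neighbouring pair in this order was further apart than the larger SD of the pair. The place of Eno1 above Eno2 depends on this scale. By exon-bin reads per length Eno2 made 48.8% ± 1.4 of the pair in wild-type Ammon's horn (SD, n = 3), level within 1 SD. By gene-table counts per length Eno2 made 40.7% ± 0.91. A read counts in each bin it overlaps, so bin sums can rise with the number of bins, 44 in Eno2 and 35 in Eno1. The levels per kilobase include intron reads, and reads of processed pseudogenes, which several of these genes have in mouse, cannot be told apart here.

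In the dentate gyrus every one of the 10 genes was lower than in all 6 Ammon's horn libraries, where 28.3% of all genes were. The dentate gyrus log2 fold change over wild-type Ammon's horn had a median of -0.47 over the 10 genes, against -0.01 over all genes. It was negative for all 10, and for 51.2% of all genes. Levels in the dentate gyrus were between 61.7% of the wild-type Ammon's horn mean, for Ldha, and 86.4%, for Pfkm. The first steps differed least, with log2 fold changes of -0.29 for Gpi1, -0.21 for Pfkm, -0.35 for Pfkp and -0.30 for Aldoa. From Pgk1 on they were larger, at -0.48 for Pgk1, -0.47 for Eno1, -0.60 for Eno2, -0.51 for Pkm, -0.70 for Ldha and -0.51 for Ldhb. This order is a description of 1 library.

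Cell type markers differed between the regions as well. The neuronal markers Rbfox3, Snap25, Syt1 and Tubb3 summed to 3006 CPM in the dentate gyrus, against 4031 to 4518 CPM in wild-type Ammon's horn, and 3 of the 4 were lower in the dentate gyrus. The oligodendrocyte markers Mbp, Mobp, Mog and Cldn11 summed to 904 CPM in the dentate gyrus, against 2686 to 2907 CPM in wild-type Ammon's horn, and all 4 were lower in the dentate gyrus. Astrocyte markers summed to 3982 CPM in the dentate gyrus, against 3183 to 3871 CPM in wild-type Ammon's horn. Red blood cell markers summed to 165 CPM in the dentate gyrus, against 237 to 333 CPM in wild-type Ammon's horn. The part of these differences in the enzyme levels was not tested, and in dissected tissue fewer cells of a type and less RNA per cell cannot be told apart.

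The steps of the pathway outside the 10 genes were read from a list of other glycolysis, lactate and pyruvate genes, of which 41 were found and 40 passed the low-count filter. In the knockout 1 of the 40 rose and 0 fell in edgeR's test, where 0.0745% of all genes were called in either direction, and 5 had an unadjusted p under 0.05, where 8.38% of all genes had one. Gapdh, which oxidises glyceraldehyde 3-phosphate, was at 2422, 2313 and 2305 CPM in the knockout, 1613 CPM in the dentate gyrus and 2683, 2548 and 2634 CPM in wild-type Ammon's horn. Its knockout libraries lay below its wild-type libraries, with a log2 fold change of -0.16 and a standard error of 0.05 (edgeR adjusted p = 0.395). Hk1 (hexokinase, the first step), Tpi1 (triose phosphate isomerase) and Pgam1 (phosphoglycerate mutase) had knockout log2 fold changes of -0.03, -0.10 and -0.09, with edgeR adjusted p of 0.925, 0.626 and 0.657.

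The gene that rose was Slc16a8, a lactate transporter, at 1.33, 0.980 and 1.42 CPM in the knockout, 0.949 CPM in the dentate gyrus and 0.420, 0.261 and 0.318 CPM in wild-type Ammon's horn. Its log2 fold change was 1.91 with a standard error of 0.27 (edgeR adjusted p = 0.0387), and the groups did not overlap. The call was lost with limma-voom (adjusted p = 0.0690), with exon-bin sums (edgeR adjusted p = 0.242) and without any 1 of 5 libraries, all but knockout replicate 2 (edgeR adjusted p 0.0540 to 0.274). DESeq2 gave no adjusted p for it. Choroid plexus markers, 6 of 6 measured, summed to 784, 18.6 and 728 CPM in the knockout, 262 CPM in the dentate gyrus and 150, 38.4 and 20.99 CPM in wild-type Ammon's horn. Knockout replicate 2, with the lowest sum of these markers, had 0.980 CPM of Slc16a8. The part of choroid plexus tissue in the level of Slc16a8 was not tested, nor was any other cause of its rise. The glucose transporter gene Slc2a1, singled out after its values were seen, was at 84.5, 102 and 85.4 CPM in the knockout, 92.5 CPM in the dentate gyrus and 109, 113 and 142 CPM in wild-type Ammon's horn. Its log2 fold change of -0.42 (standard error 0.10) did not pass in edgeR (adjusted p = 0.340) and did in DESeq2 (adjusted p = 0.00280).

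Over the 40 listed genes the dentate gyrus log2 fold change was negative for 22 and positive for 18, with a median of -0.06, where 51.2% of all genes were negative. Of the 40, 15 were below all 6 Ammon's horn libraries, where 28.3% of all genes were, and nothing particular to the list is read from these counts. The genes that serve the same chain of steps as the 10 were among the lower ones, with log2 fold changes of -0.70 for Gapdh, -0.58 for Pgam1, -0.56 for Tpi1, -0.35 for Aldoc and -0.33 for Hk1. Pfkl, the liver form of phosphofructokinase, was at 206 CPM in the dentate gyrus and 208, 213 and 211 CPM in wild-type Ammon's horn, with a log2 fold change of -0.03. Eno3 and Pklr, the muscle enolase and the liver and red cell pyruvate kinase, were at 2.25 and 0.161 CPM in the dentate gyrus, and at means of 1.996 and 0.314 CPM in wild-type Ammon's horn.

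**Figure D3:**
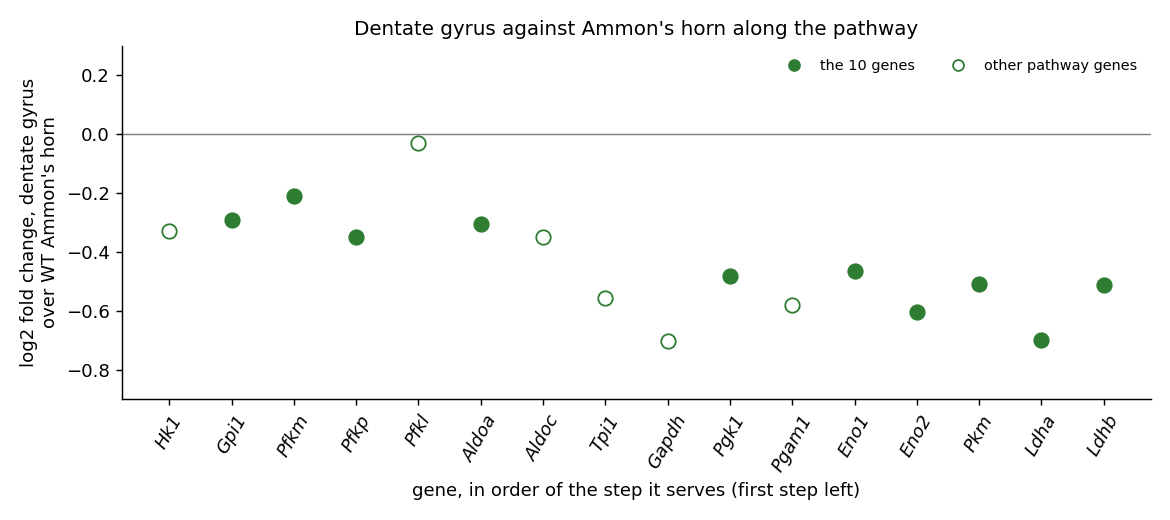
Difference, as log2 fold change, of the dentate gyrus library over wild-type Ammon's horn for 16 genes, ordered from the first step of the pathway on the left to lactate dehydrogenase on the right; filled points are the 10 genes and open points are other genes of the chain. All points are below 0, with Pfkl at -0.03 and Gapdh and Ldha both at -0.70.

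Exon usage was read from the exon bins, as the change of a bin relative to the change of its whole gene. In the knockout, 208 of the 270 bins had enough reads to be tested, and edgeR's exon usage test called 0 of them, against a background of 0.00301% of 166154 bins. An unadjusted p under 0.05 was found for 5 of the 208 bins, where 1.72% of all bins had one, and limma-voom called 0. These, chosen after their values were seen, were Aldoa bin 19, Eno2 bin 10, Gpi1 bin 11 and Pfkp bins 49 and 50, each with an edgeR adjusted p of 1.0. In the dentate gyrus, 42 of 209 bins had a share of their gene's reads above all 6 Ammon's horn libraries, where 18.4% of all bins did, and 36 had one below all 6, where 14.9% did.

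Pkm makes 2 enzymes from mutually exclusive exons. Exon 9 (bin 9, chr9:59675029-59675195, plus strand) is coding sequence of PKM1, the constitutively active form of adult neurons and muscle, and exon 10 (bin 10, chr9:59675568-59675734, plus strand) is coding sequence of PKM2, the regulated form of dividing cells and astrocytes. Both exons are 167 bases long, with 103 identical and 64 differing bases, an identity of 61.7%. They are shown because the split between the enzymes rests on reads that tell them apart; capitals mark the differing bases, and the letters are from GENCODE release M21 transcripts on GRCm38.
Pkm exon 9: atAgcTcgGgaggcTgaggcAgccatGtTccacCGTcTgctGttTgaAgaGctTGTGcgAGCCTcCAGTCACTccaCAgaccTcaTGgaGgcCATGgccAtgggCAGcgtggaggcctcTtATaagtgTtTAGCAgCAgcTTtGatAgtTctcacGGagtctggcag
Pkm exon 10: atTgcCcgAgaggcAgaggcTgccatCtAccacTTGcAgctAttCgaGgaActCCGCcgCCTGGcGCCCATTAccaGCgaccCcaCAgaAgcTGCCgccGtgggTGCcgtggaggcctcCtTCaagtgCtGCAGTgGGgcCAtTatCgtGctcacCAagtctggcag

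Reads over exon 10 numbered 354, 300 and 296 in the knockout, 282 in dentate gyrus and 285, 388 and 361 in wild-type Ammon's horn. Reads over exon 9 numbered 4733, 4591 and 3970 in the knockout, 3474 in dentate gyrus and 4244, 5382 and 4935 in wild-type Ammon's horn. Exon 9, of PKM1, thus held most reads in every library. Exon 10 made 6.96%, 6.13% and 6.94% of the reads of the pair in the knockout, 7.51% in dentate gyrus (95% Clopper-Pearson interval 6.69% to 8.40%) and 6.29%, 6.72% and 6.82% in wild-type Ammon's horn. Knockout and wild type overlapped, with means of 6.68% and 6.61% and an exact two-sided permutation p of 0.800, where 3 libraries against 3 cannot go below 0.10. The dentate gyrus value was the highest, and its interval includes 4 of the 6 Ammon's horn values. The other Pkm bins with at least 1% of the gene's reads had knockout usage changes between -0.05 and 0.05 on the log2 scale.

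In Aldoa, the bin that differed most in the dentate gyrus was bin 16, a whole intron of 95 bases (chr7:126797549-126797643, minus strand) between 2 coding exons. GENCODE places it only in transcripts with a retained intron. Its sequence is shown because it carries the largest dentate gyrus usage difference of the 209 bins tested; capitals mark the first and the last pair of bases, the GT and AG of a standard intron.
Aldoa bin 16: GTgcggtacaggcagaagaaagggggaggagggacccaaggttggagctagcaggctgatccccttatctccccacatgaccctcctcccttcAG

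Bin 16 held 25, 30 and 21 reads in the knockout, 107 in dentate gyrus and 23, 24 and 15 in wild-type Ammon's horn. That was a mean of 0.0256% of the gene's reads in the knockout, 0.126% in dentate gyrus (95% Clopper-Pearson interval 0.104% to 0.153%) and a mean of 0.0192% in wild-type Ammon's horn. The dentate gyrus stood apart from all 6 Ammon's horn libraries, with a usage log2 fold change of 2.74. The flanking coding bins 15 and 17 held 14.1% and 8.89% of the gene's reads in the dentate gyrus and means of 14.0% and 8.59% in wild-type Ammon's horn. Intron reads were thus a small fraction of the gene's reads. In the knockout the usage change of bin 16 was 0.44 with a standard error of 0.29 (edgeR adjusted p = 1.0).

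The other Aldoa introns read as bins did not stand out in the same way. Of 5 such bins tested, bin 16 alone was above all 6 Ammon's horn libraries in the dentate gyrus, and the other usage log2 fold changes were between 0.15 and 0.54. Bin 19 (chr7:126797777-126797973) held 82, 23 and 11 reads in the knockout, 24 in dentate gyrus and 16, 25 and 23 in wild-type Ammon's horn. Knockout replicate 1 alone was high. The knockout usage change was 1.0 with a standard error of 0.26, an unadjusted p of 0.000166 and an edgeR adjusted p of 1.0; it was -0.14 without knockout replicate 1, and was called at 1.38 without knockout replicate 3 (edgeR adjusted p = 0.0276). The Aldoa coding and leader bins with at least 1% of the reads had knockout usage changes between -0.05 and 0.03, and dentate gyrus changes between -0.05 and 0.05. The coordinates of Aldoa bins rest on matching the read density of the bins to the gene model, since 1 bin had no counterpart in it.

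In Gpi1 the bin that differed most was bin 11. By the gene model it has 2067 bases and is the stretch of intron that runs into the exon of bin 10. It is annotated only in a transcript that begins inside the intron and runs on into that exon. The model had as many Gpi1 bins as were deposited, 24, but its outer ends differ from those of the deposited gene. Bin numbers may therefore be shifted against the model, and all positions and exon names of Gpi1 bins rest on this match.

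Bin 11 held 181, 204 and 216 reads in the knockout, 379 in dentate gyrus and 85, 277 and 169 in wild-type Ammon's horn. Its share of the gene's reads was 0.612%, 0.657% and 0.841% in the knockout, 1.63% in dentate gyrus (95% Clopper-Pearson interval 1.47% to 1.80%) and 0.339%, 0.818% and 0.575% in wild-type Ammon's horn. The dentate gyrus was the highest, and the wild-type libraries spread more widely than the knockout libraries, which lay within or near their range. The usage log2 fold change was 1.46 in the dentate gyrus. In the knockout it was 0.24 with a standard error of 0.11 (edgeR adjusted p = 1.0), and -0.01 without wild-type replicate 1.

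The coding bins of Gpi1 on either side did not show this difference. Bins 10 and 12 held 5.42% and 5.13% of the reads in the dentate gyrus and means of 5.59% and 5.35% in wild-type Ammon's horn. Over the coding bins with at least 1% of the reads, knockout usage changes were between -0.11 and 0.09 and dentate gyrus changes between -0.09 and 0.11. At the 5′ end of the gene, bins 17 to 24 held at most 4 reads in any library, whereas bin 15 held at least 1680. The exons of Gm26762, a gene on the opposite strand (chr7:34224755-34230236), overlap 6 of these 8 bins as placed by the model. Use of the first Gpi1 exons could not be read.

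In Eno2, bin 10 (chr6:124762762-124763004, minus strand) is an intron of the standard coding transcripts and an exon part of others. It held 48, 43 and 39 reads in the knockout, 71 in dentate gyrus and 17, 43 and 20 in wild-type Ammon's horn. That was 0.0816%, 0.0689% and 0.0756% of the gene's reads in the knockout, 0.171% in dentate gyrus (95% Clopper-Pearson interval 0.133% to 0.215%) and 0.0305%, 0.0607% and 0.0318% in wild-type Ammon's horn. By share the knockout libraries lay above the wild-type libraries and below the dentate gyrus. The knockout usage change was 0.84 with a standard error of 0.19 and an unadjusted p of 0.000277, and it was not called (edgeR adjusted p = 1.0). In the dentate gyrus the usage log2 fold change was 2.02.

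Intron-type bins, those in noncoding transcripts only, were summed in the genes whose bins could be placed. They made 0.115% of Aldoa reads in the knockout, 0.227% in dentate gyrus and 0.0939% in wild-type Ammon's horn. They made 0.164% of Eno2 reads in the knockout, 0.317% in dentate gyrus and 0.106% in wild-type Ammon's horn. In Eno1 the shares were 0.147% in the knockout, 0.204% in dentate gyrus and 0.137% in wild-type Ammon's horn. In Pgk1 such reads numbered 0 in the dentate gyrus, which allows a share of up to 0.0209%. Knockout and wild type were not told apart for any of these genes or for Gpi1, with exact permutation p between 0.20 and 1.0 and adjusted values of 1.0 over 5 genes. Of 10 such bins tested in the dentate gyrus, 4 lay above all 6 Ammon's horn libraries, 1 each in Aldoa, Gpi1, Eno1 and Eno2, where 18.4% of all bins did. The Aldoa and Gpi1 bins are among those the genes were chosen for, and nothing is read from this count.

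Counts in no exon bin of any gene made 4.83% of all exon-bin, ambiguous and no-bin counts in the dentate gyrus, above all others. They made 3.99% to 4.20% in the knockout and 3.52% to 4.09% in wild-type Ammon's horn. A read counts in each bin it overlaps, so these are shares of counts and not of reads. The gene-table count was 1.24 times the exon-bin count for Gpi1 in the dentate gyrus, against 1.17 ± 0.01 (SD, n = 3) in wild-type Ammon's horn. This ratio is no measure of introns alone, since the 2 counts differ in other ways. Knockout replicate 1 had 61204108 gene-table counts, against 34308516 exon-bin counts and 1508172 in no bin. The mean ratio in wild-type Ammon's horn was 0.78 for Eno2 and 1.56 for Pgk1. For Aldoa it was 1.02 times in the dentate gyrus, against 0.945 ± 0.008 in wild-type Ammon's horn, and knockout replicate 1 was also at 1.02. The part of these library differences in the intron bins was not tested.

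**Figure D4:**
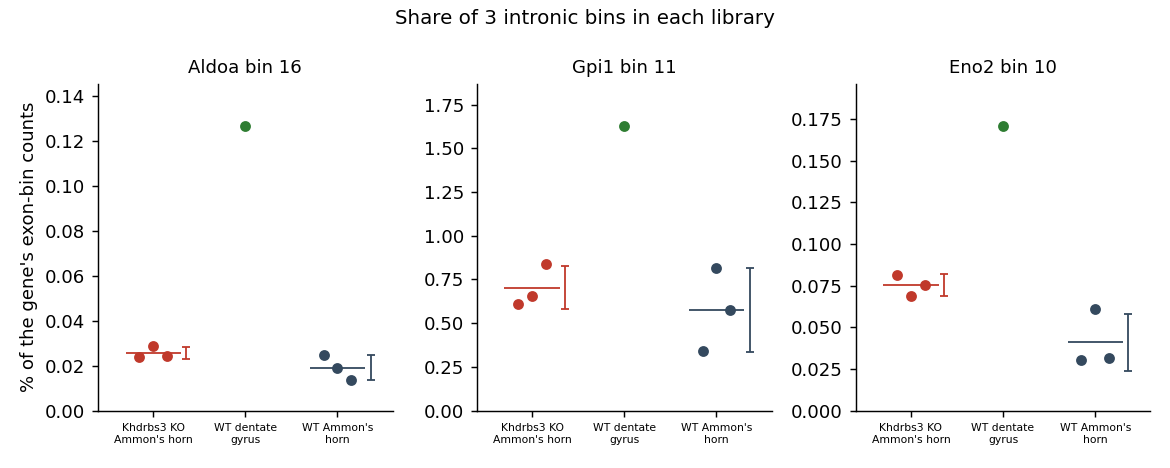
Share of the gene's exon-bin counts, in percent, that lay in Aldoa bin 16, Gpi1 bin 11 and Eno2 bin 10 in each library; lines are group means and bars 1 SD (n = 3). The dentate gyrus point is the highest in each panel, at 0.126%, 1.63% and 0.171%.

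In the other genes the largest dentate gyrus usage differences were smaller. Eno1 bin 11, an intron-type bin, had 24 reads in the dentate gyrus and a usage log2 fold change of 0.87, and Pgk1 bin 1, at the first exon, had 19 reads and -0.54. Pfkp bin 21 had 45 reads and 1.24, and Ldha bin 3 had 46 reads and 0.74. Pfkm bin 20 and Ldhb bin 12, with 3.11% and 3.98% of their gene's reads, had -0.21 and -0.19. Bins of Pfkp, Ldha and Ldhb are given by number, since their coordinates could not be placed. The lowest unadjusted knockout p in the remaining genes was 0.011 for Pfkp bin 50, with a usage change of -0.75 and a standard error of 0.23. In Ldhb (bin 13), Pfkm (bin 2), Ldha (bin 2), Eno1 (bin 27), Pkm (bin 4) and Pgk1 (bin 9) the lowest unadjusted p was between 0.0641 and 0.597, all from the edgeR fit.

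The balance of isoenzymes was read as each gene's share of exon-bin reads per length, and 7 such shares, the Pkm exons included, were compared. Since a read counts in each bin it overlaps, the size of a gene's share also depends on how finely its exons are divided. The shares are therefore compared between libraries. For enolase, Eno2 made 48.4% ± 0.60 in the knockout, 46.1% in dentate gyrus and 48.8% ± 1.4 in wild-type Ammon's horn (SD, n = 3 each; exact permutation p = 0.700, adjusted 0.800). For lactate dehydrogenase, Ldhb made 62.5% ± 1.5 in the knockout, 63.1% in dentate gyrus and 61.4% ± 1.1 in wild-type Ammon's horn (exact permutation p = 0.400, adjusted 0.700). For aldolase, Aldoa made 78.8% in the knockout, 78.4% in dentate gyrus and 78.9% in wild-type Ammon's horn, the rest being Aldoc, the astrocyte form (exact permutation p = 0.800). None of these pairs differed between knockout and wild type by more than the spread between libraries.

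Of the 3 phosphofructokinase subunits, Pfkm made 49.4% ± 0.52 of the reads per length in the knockout, 48.7% in dentate gyrus and 48.6% ± 0.44 in wild-type Ammon's horn. Pfkp made 25.1% ± 0.53 in the knockout, 21.3% in dentate gyrus and 24.6% ± 0.37 in wild-type Ammon's horn. Pfkl made 25.2%, 25.6% and 25.7% in the knockout, 29.9% in dentate gyrus and 27.0%, 26.5% and 26.8% in wild-type Ammon's horn. For Pfkl all 3 knockout libraries lay below the wild-type libraries, by 1.28 percentage points on average, with an exact permutation p of 0.10, the smallest possible, and an adjusted value of 0.467. Both other subunits had an exact permutation p of 0.200. In the dentate gyrus the Pfkp share lay below, and the Pfkl share above, all 6 Ammon's horn libraries.

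**Figure D5:**
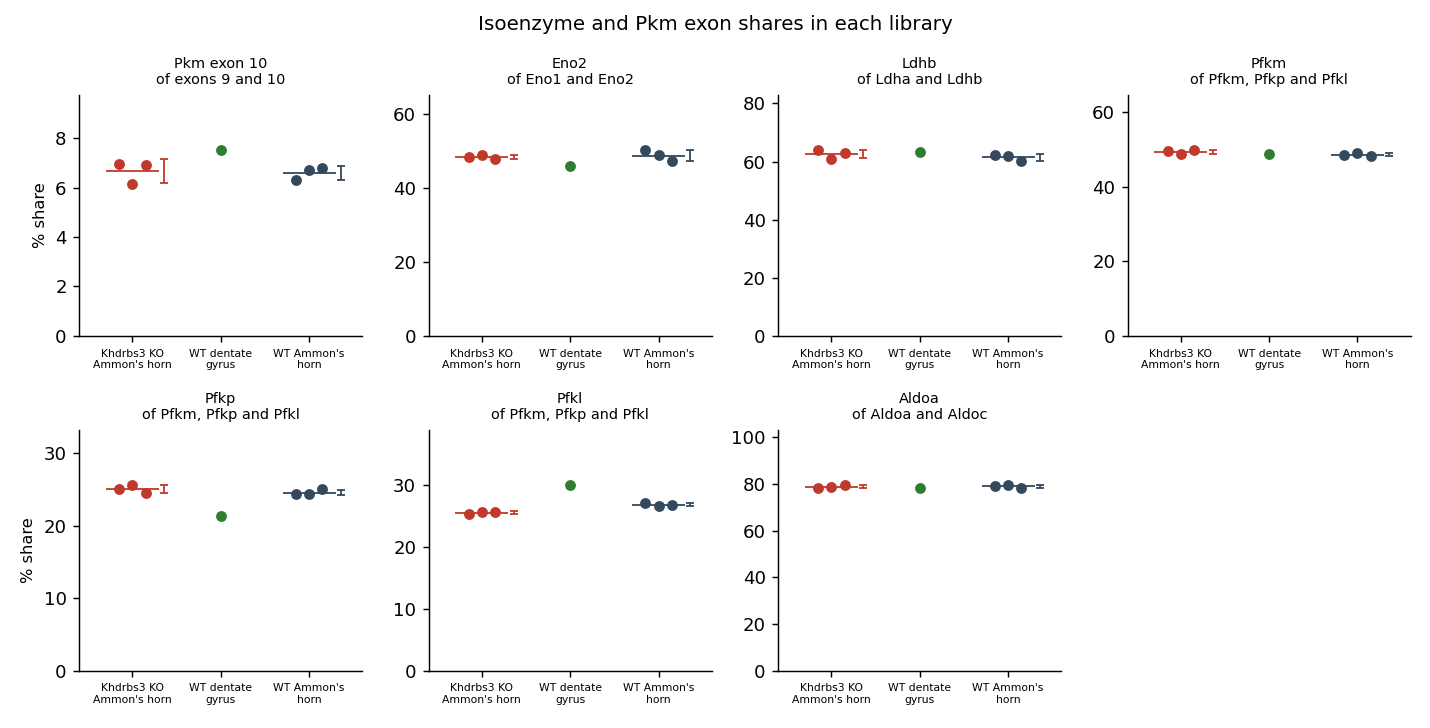
Share of each isoenzyme or exon, in percent of exon-bin reads per length, in each library; lines are group means and bars 1 SD (n = 3). Knockout and wild-type points lie close together, and the dentate gyrus has 21.3% Pfkp and 29.9% Pfkl of the phosphofructokinase reads.

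The promoters of the 10 genes were read for ACGTG, a core sequence of sites that the hypoxia-inducible factor is known to bind in several glycolytic genes. Hif1a, which encodes a subunit of that factor and was singled out after its values were seen, was at 53.2, 55.8 and 56.2 CPM in the knockout, 67.3 CPM in the dentate gyrus and 57.9, 50.4 and 55.4 CPM in wild-type Ammon's horn. It was highest in the dentate gyrus, where the 10 genes were lower, and any part of the factor in their levels was not tested. ACGTG was searched on both strands in windows of 300 bases, from 250 before to 50 after each RefSeq start on GRCm38.p6. The palindrome CACGTG counts once on each strand. A match was present in 7 of 19 windows of the 10 genes and in 19.6% of 32851 windows in all. By gene, 5 had at least 1, namely Aldoa, Ldha, Pfkm, Pgk1 and Pkm. Windows of a gene can overlap, and the Aldoa windows with a match share the same site. Genes with more windows have more chances of a match, and a share by gene was not computed over all genes. Nothing particular to the 10 genes is read from these counts. One Ldha window (chr7:46845554-46845853, plus strand) had 5 matches and the Pgk1 window (chrX:106186850-106187149, plus strand) had 2. They are shown as the windows of the gene with the largest dentate gyrus difference and of a gene near the median. Eno1, equally near the median, had no ACGTG in any of its windows, and the other Ldha window had none. With the variant GCGTG also counted, each Eno1 window and the other Ldha window had 2 matches. By that wider count the Pfkp window had 4, the Ldhb window 1, and the Gpi1 and Eno2 windows 0. Its share over all windows is not given. Capitals mark the ACGTG matches, which are letters and no measure of binding.
Ldha promoter: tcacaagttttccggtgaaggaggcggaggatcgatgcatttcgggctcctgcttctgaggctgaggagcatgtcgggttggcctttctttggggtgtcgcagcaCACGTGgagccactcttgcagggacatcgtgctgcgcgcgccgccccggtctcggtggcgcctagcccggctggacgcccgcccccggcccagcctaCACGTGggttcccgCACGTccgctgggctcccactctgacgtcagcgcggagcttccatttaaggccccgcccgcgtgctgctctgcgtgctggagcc
Pgk1 promoter: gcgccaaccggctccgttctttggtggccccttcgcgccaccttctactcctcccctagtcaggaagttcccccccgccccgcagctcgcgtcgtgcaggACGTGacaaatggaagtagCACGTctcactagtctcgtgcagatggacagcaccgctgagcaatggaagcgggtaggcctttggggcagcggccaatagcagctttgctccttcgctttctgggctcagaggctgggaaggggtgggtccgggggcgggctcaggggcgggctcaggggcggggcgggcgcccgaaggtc

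Genes whose levels followed Aldoa and Gpi1 most closely over the 7 libraries were sought among 10807 genes with a mean of at least 10 CPM, by the root mean square difference of centred log2 CPM. For Aldoa they were Tufm, BC031181 and Gm21972, at 0.021, 0.022 and 0.023. For Gpi1 they were Ppp2r5c, Nfe2l1 and Slco3a1, at 0.0066, 0.015 and 0.016. The 7 points share libraries and the single dentate gyrus sample, and this likeness is a description.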

How the data were processed

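Per the labels, RNA was extracted with the Qiagen RNeasy Plus kit and prepared with Illumina TruSeq mRNA chemistry. Per the submitters' processing notes, the mm10 build and 4 tools were used, in roles not given there: DESeq2 1.0.19, bedtools 2.17.0, TopHat2 2.0.8b and Trim Galore 0.3.5. The authors deposited raw counts per gene, over whole genes, and raw counts per DEXSeq exon bin; a read is counted in each bin it overlaps, and strand use is not given in the sources used here.

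Gene tests were run with edgeR 4.0.16 under R 4.3.3 (TMM scaling, filterByExpr, quasi-likelihood F test, Benjamini-Hochberg adjustment, threshold 0.05), and bins with edgeR's diffSpliceDGE, where 3 or more libraries had 10 or more reads. The knockout fit used 6 libraries and the dentate gyrus fit all 7, so that the single dentate gyrus library borrowed the spread of the others. The tests were tried on simulated data. DESeq2 1.42.0 and limma 3.58.1, other scalings and filters, exon-bin sums and leaving out each library were alternatives. Bin coordinates were rebuilt from GENCODE M21 models on GRCm38; the deposited annotation is release M2 by its identifiers. The sums of gene and bin counts per library limit precision, and intervals and floors cover counting error only. Named were the 10 genes, the bin of each gene with the smallest knockout p, Aldoa, Gpi1 and Pkm bins of at least 1%, the largest dentate gyrus difference in each other gene, called pathway genes and isoenzyme partners. Bins of under 1% outside this rule, such as Aldoa bin 16, were singled out by their values. The members and lists were chosen with earlier results of these data known. A marker gene and a sequence are not reported here.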

Additional observations from a re-analysis of the deposited data

How the results depend on the processing

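No paired analysis was possible because the labels give no replicate numbers shared between groups. Over 57 results and 566 alternatives, 520 were rated the same, 15 moved in size or number and 21 changed sign. A call was lost or not given in 8 and gained in 2. Results rated the same could still shift, as from 17 to 23 genes called over all genes without the low-count filter. None of the 10 genes was called in the knockout under any alternative tried. In the knockout, 17 genes were called over all genes, against 8 with exon-bin sums, 117 with DESeq2, 10 with limma-voom and between 11 and 55 without 1 library. Over all bins 5 were called, and between 5 and 8 without 1 library; of the bins of the 10 genes 0 were called, and up to 1 (Aldoa bin 19, without knockout replicate 3). The knockout median of the 10 genes was between -0.07 and -0.02 without 1 library. The dentate gyrus median of -0.47 was -0.44 with exon-bin sums. Values near 0 changed sign without 1 library, with ranges of -0.0056 to 0.017 for Gpi1, -0.049 to 0.015 for Eno1, -0.057 to 0.0049 for Hk1 and -0.45 to 0.20 for Pklr, which was also 0.0026 with DESeq2. For bins these ranges were -0.14 to 1.38 for Aldoa bin 19, -0.0085 to 0.60 for Gpi1 bin 11 and -0.15 to 0.068 for Eno1 bin 27. For knockout minus wild-type shares they were -0.093 to 0.34 percentage points for Pkm exon 10, -1.15 to 0.23 for Eno2 and -0.47 to 0.23 for Aldoa. The Aldoa share difference was 0.71 percentage points with gene-table counts and 0.53 with gene-table counts per length, an alternative chosen after seeing the data. The cause of these changes was not tested. Depth limits the intron-type bins, several of which hold under 30 reads per library.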
